A study of Homo sapiens with 6 samples.

Results

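Wnt proteins are secreted ligands that bind Frizzled (FZD) receptors on the cell surface, alone or together with the co-receptors LRP5 and LRP6, ROR1, ROR2 or RYK. With LRP5 or LRP6 they stabilise β-catenin, which then drives transcription with TCF and LEF factors, and through the other routes they act on cell polarity and movement without β-catenin. Secreted antagonists limit this signaling: SFRP proteins bind the Wnt ligands themselves, whereas DKK1 binds LRP5 and LRP6. In the mammary epithelium the pathway is known for its part in branching, in stem cell maintenance and in the behavior of the basal layer.

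The 10 genes described here are the receptors FZD2, FZD6, FZD7 and FZD8, the ligands WNT5A, WNT5B and WNT7A, and the antagonists SFRP1, DKK1 and DKK3. They were chosen by name, as all probes whose platform gene symbol is one of these, which gave 16 of 47323 probes and 10 of 20046 genes. HMLE cells, an immortalized human mammary epithelial line, were measured under 6 conditions with 1 Illumina HumanHT-12 v4 array each: Vector, Snail and TGF-β, each without DHA and with 20 μM DHA. Snail, an epithelial-mesenchymal transition (EMT) transcription factor, was expressed ectopically. The study's methods describe a retroviral vector, empty in controls, with hygromycin selection, and also stably expressing cells received from another laboratory. Its array section calls the control a vehicle control. Which cells the arrays used, and whether the TGF-β and DHA cells carried the empty vector, is not stated. The labels give 1 ng/mL TGF-β, a growth factor that induces EMT, and DHA is docosahexaenoic acid, an omega-3 fatty acid. All arrays lay on 1 BeadChip, and with 1 array per condition there is no replicate check of any difference between a pair of arrays: condition and array cannot be told apart.

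Values are the deposited log2 values after quantile normalization, and the median of each array was 6.30. Between 38.0% and 43.9% of probes were above background by array (detection p under 0.05, estimated from the low signals of that array). The share was lower on each DHA array than on its counterpart without DHA. Epithelial markers, other than the basal keratins, had a mean log2 value of 10.42 on the Vector array against 7.57 on the Snail array and 7.25 on the Snail+DHA array, where CDH1 and EPCAM were not above background. On the DHA, TGF-β and TGF-β+DHA arrays all 5 of these markers were above background, with means of 9.83, 9.76 and 9.52. CDH1 was 11.52 with TGF-β against 11.46 with Vector, EPCAM 10.88 against 11.22 and CLDN1 9.43 against 11.75. With DHA alone these genes were 11.15, 10.03 and 11.11. The basal keratins KRT5 and KRT14 were above background on every array, with a mean of 13.55 with Vector, 14.04 with DHA, 10.91 with Snail, 9.75 with Snail+DHA, 14.22 with TGF-β and 13.49 with TGF-β+DHA. Mesenchymal markers had means of 7.69 with Vector and 7.67 with DHA, 10.11 and 9.71 on the Snail arrays, and 8.41 and 8.44 on the TGF-β arrays. Among leukocyte markers PTPRC and CD3E were above background on no array, whereas CD14 and LYZ were above it on all 6, and the mean of that list lay between 6.31 and 6.63. Of the endothelial markers PECAM1 was above background on the Vector array and none on any other. The SNAI1 probe was above background on no array (5.88 to 6.02), so the ectopic Snail transcript was not checked by it.

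The promoters of 3 genes are printed, from the members with an entry in the RefSeq promoter table. Of these they are the ligands and the antagonist whose measured values differed most between Vector and Snail cells. WNT7A was not above background with Snail, and its bound of at least 1.89-fold is below the 2.17-fold of WNT5B. The table held entries for 5 of the 10 members. The sequences run from 250 bases before the start site to 50 bases after it (RefSeq, build GRCh38.p14). The WNT5A promoter is on chr3:55487257-55487556, minus strand, that of WNT7A on chr3:13880022-13880321, minus strand, and that of DKK1 on chr10:52314031-52314330, plus strand. Capitals mark matches to 3 motifs searched on both strands: the E-box CAGGTG, a 6-base sequence that Snail family factors can bind and that reads CACCTG on the other strand, the TCF/LEF core CTTTGA, which reads TCAAAG there, and the TATA box TATAAA, which reads TTTATA there. No matches of different motifs overlap.
WNT5A: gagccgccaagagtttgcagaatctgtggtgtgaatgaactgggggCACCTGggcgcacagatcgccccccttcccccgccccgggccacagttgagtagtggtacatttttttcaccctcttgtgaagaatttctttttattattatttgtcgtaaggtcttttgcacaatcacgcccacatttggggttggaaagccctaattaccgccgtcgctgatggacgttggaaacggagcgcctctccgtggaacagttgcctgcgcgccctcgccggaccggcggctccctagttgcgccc
WNT7A: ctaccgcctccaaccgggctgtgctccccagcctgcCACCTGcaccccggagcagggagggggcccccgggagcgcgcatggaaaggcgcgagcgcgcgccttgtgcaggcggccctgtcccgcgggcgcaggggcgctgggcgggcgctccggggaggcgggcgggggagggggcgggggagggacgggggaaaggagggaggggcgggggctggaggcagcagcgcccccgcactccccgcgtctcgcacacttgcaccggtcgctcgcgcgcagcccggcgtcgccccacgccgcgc
DKK1: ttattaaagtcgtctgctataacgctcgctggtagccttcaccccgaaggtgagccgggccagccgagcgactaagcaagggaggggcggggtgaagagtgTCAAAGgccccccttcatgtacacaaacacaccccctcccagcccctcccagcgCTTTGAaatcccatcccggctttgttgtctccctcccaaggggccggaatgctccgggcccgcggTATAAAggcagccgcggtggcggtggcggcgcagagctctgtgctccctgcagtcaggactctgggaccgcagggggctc
The E-box was found 204 bases before the start in WNT5A and 214 bases before it in WNT7A, and it is present in 20.6% of the 27305 promoters in the table. No match lay in the windows of DKK1, FZD8 or WNT5B. The TCF/LEF core occurred at 149 and 95 bases before the start of DKK1, against 13.1% of all promoters that hold it. TATAAA lay 30 bases before the start of DKK1 and 29 bases before that of FZD8, and 12.0% of promoters carry it. These matches describe letters in a window and were not tested as binding sites.

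By the measured values 6 of the 10 members were higher and 2 lower in Snail cells than in Vector cells by 2-fold or more, with a median log2 difference of 1.13. A value not above background gives only a bound, and for WNT7A, 1 of the 2 lower genes, that bound is at least 1.89-fold, so that 1 member stays past 2-fold lower as a bound. Over all 12446 genes above background on either array, 4.21% were past 2-fold higher and 4.44% past 2-fold lower by measured values, or 4.07% and 4.24% as bounds, and the median difference was 0.01. DKK1, WNT5A, FZD2, DKK3, FZD8 and WNT5B were higher, SFRP1 and WNT7A were lower, and FZD6 (-0.86) and FZD7 (0.04) lay within 2-fold. As the arrays measured RNA of whole cultures, fewer cells with a transcript and less transcript per cell cannot be told apart. The epithelial and mesenchymal markers given above differed between Vector and Snail cells too, and their part in these differences was not tested. As the genes were chosen with earlier results of these arrays known, the counts describe these arrays and are not independent evidence of a direction.

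**Figure D1:**
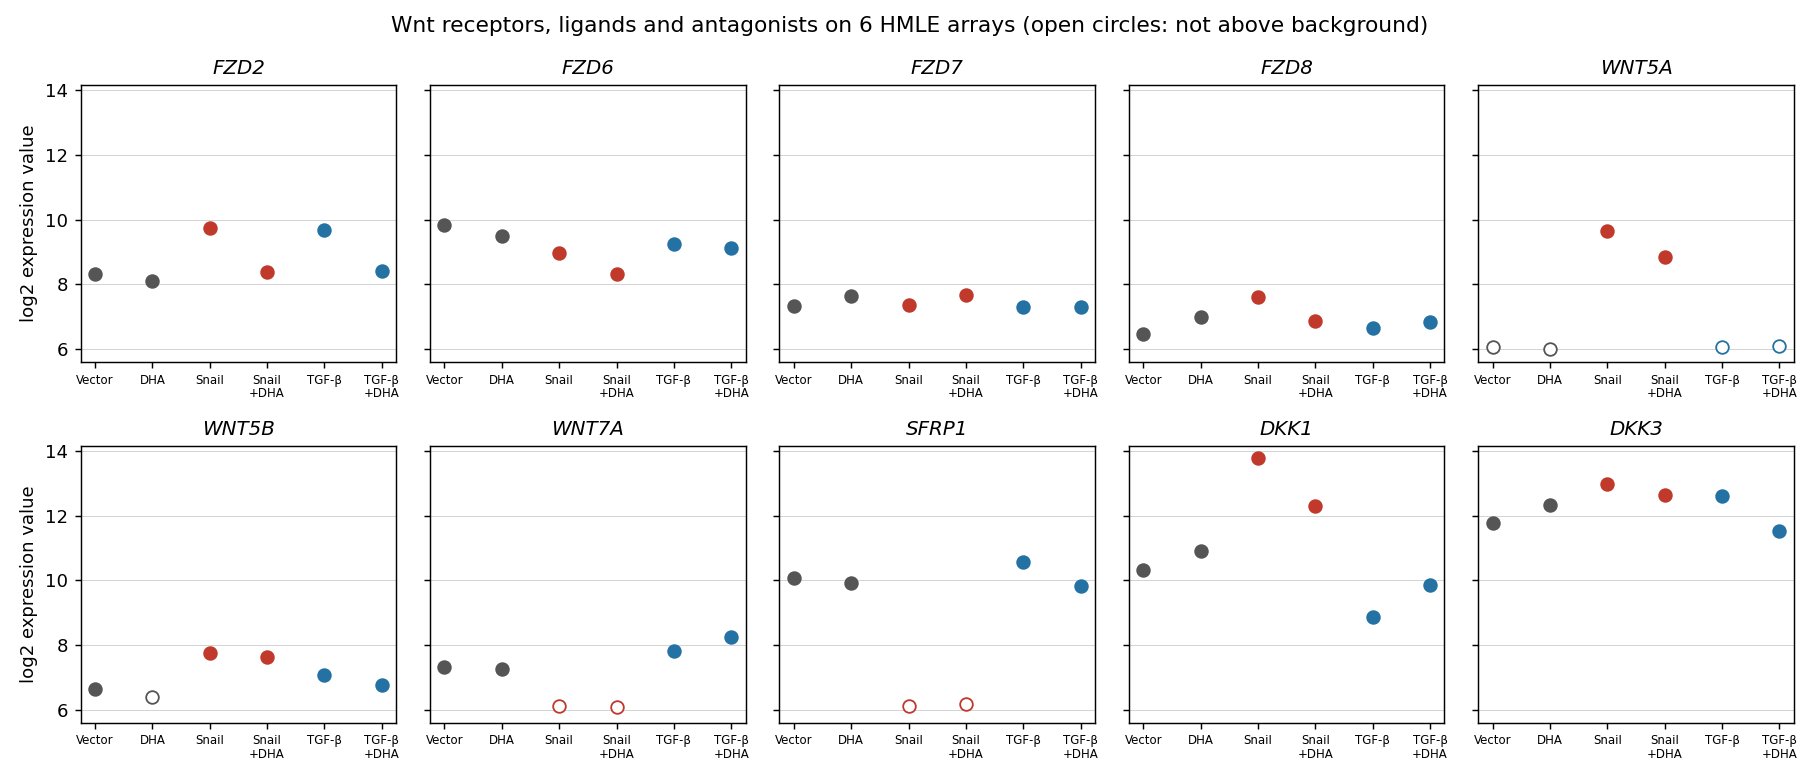
Log2 value (y axis) of each of the 10 genes on the 6 arrays (x axis), 1 panel per gene with receptors, ligands and antagonists in turn. Each point is 1 array, filled where the probe was above background and open where it was not; SFRP1 lies at 10.06 on the Vector array and 6.12 on the Snail array, while FZD7 lies between 7.29 and 7.66 on all 6.

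The receptors differed from one another in the condition with the highest value. FZD2, a receptor that takes part in WNT5A signaling together with ROR co-receptors, had log2 values of 8.32 with Vector, 8.10 with DHA, 9.75 with Snail, 8.38 with Snail+DHA, 9.66 with TGF-β and 8.41 with TGF-β+DHA. It was high on the Snail and TGF-β arrays without DHA and lay between 8.10 and 8.41 on the other 4. FZD2 was 1.42 higher in Snail cells than in Vector cells and 1.34 higher in TGF-β cells. In the presence of DHA the corresponding differences were 0.28 and 0.31.

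The lower of its 2 high values lay 1.26 above the highest of the other 4. Such a gap of at least 2-fold was found for 2 of 13514 genes (0.0148%), FZD2 and LAPTM5, a pattern looked for after the values of FZD2 had been seen. FZD2 is measured by 1 probe, so no other probe bears on this pattern.

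FZD6, a receptor best known for planar cell polarity, was highest with Vector at 9.82. The values were 9.49 with DHA, 8.97 with Snail, 8.31 with Snail+DHA, 9.24 with TGF-β and 9.11 with TGF-β+DHA. Every other array lay below Vector, with the 2 Snail arrays lowest. The Snail arrays differed from their counterparts by -0.86 without DHA and by -1.19 with it.

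FZD8 had log2 values of 6.46 with Vector, 6.997 with DHA, 7.61 with Snail, 6.85 with Snail+DHA, 6.66 with TGF-β and 6.84 with TGF-β+DHA. Its Snail value was 1.14 above Vector, and in the presence of DHA the difference was -0.15. The values are close to the lower end of what these arrays measured, where 6.37 to 6.48 was the lowest log2 value above background by array. FZD7, a receptor for several Wnt ligands that is found on basal mammary cells, spanned 7.29 to 7.66 and was past 2-fold in no comparison. Its second probe was above background on 4 of the 6 arrays and spanned 6.30 to 6.66.

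Among the ligands WNT5A was above background on the Snail arrays and on no other. This ligand, which signals mainly without β-catenin, had log2 values of 9.63 with Snail and 8.84 with Snail+DHA. The measured values on the other 4 arrays lay below that limit (6.06 with Vector, 5.99 with DHA, 6.05 with TGF-β and 6.10 with TGF-β+DHA). It was therefore at least 9.59-fold higher in Snail than in Vector cells, and at least 5.30-fold higher in Snail+DHA than in DHA cells. These bounds compare the measured value with the lowest signal above background on the other array, or with the probe's own value there where that was higher.

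WNT5B, the close relative of WNT5A, had log2 values of 6.64 with Vector, 6.39 with DHA, 7.76 with Snail, 7.63 with Snail+DHA, 7.06 with TGF-β and 6.77 with TGF-β+DHA. The 2 Snail arrays were highest, and the DHA array was not above background. The difference was 1.12 between Snail and Vector and at least 2.30-fold between Snail+DHA and DHA. A second WNT5B probe was above background on no array (5.84 to 6.13).

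WNT7A, a ligand of epithelial tissues, had its lowest values on the Snail arrays. The values were 7.33 with Vector, 7.27 with DHA, 7.83 with TGF-β and 8.23 with TGF-β+DHA. On the Snail and Snail+DHA arrays the probe was not above background (6.12 and 6.09). As a bound this is at least 1.89-fold lower in Snail than in Vector cells, and at least 1.73-fold lower in Snail+DHA than in DHA cells, although the measured values differed by -1.21 and -1.18 and count as past 2-fold. The TGF-β arrays were the highest for this gene, by 0.50 over Vector without DHA and by 0.96 over the DHA array with it.

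Of the antagonists DKK1 spanned 4.89 over the 6 arrays and DKK3 1.46, both above background on all of them. SFRP1, which binds Wnt ligands through a domain resembling that of Frizzled receptors, had log2 values of 10.06 with Vector, 9.92 with DHA, 10.57 with TGF-β and 9.82 with TGF-β+DHA. It was not above background with Snail (6.12) or with Snail+DHA (6.19). SFRP1 was at least 12.6-fold lower in Snail than in Vector cells and at least 10.8-fold lower in Snail+DHA than in DHA cells. TGF-β cells differed by 0.51 without DHA and by -0.09 with it.

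DKK1 blocks the co-receptors LRP5 and LRP6. Its log2 values were 10.32 with Vector, 10.90 with DHA, 13.77 with Snail, 12.29 with Snail+DHA, 8.88 with TGF-β and 9.86 with TGF-β+DHA. Snail and TGF-β cells lay on opposite sides of Vector, at 3.45 and -1.44. With DHA on both arrays these differences were 1.38 and -1.05. A second DKK1 probe, with values from 6.45 to 10.13, was highest on the Snail array and lowest on the TGF-β array as well, with differences from Vector of 3.18 and -0.50.

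**Figure D2:**
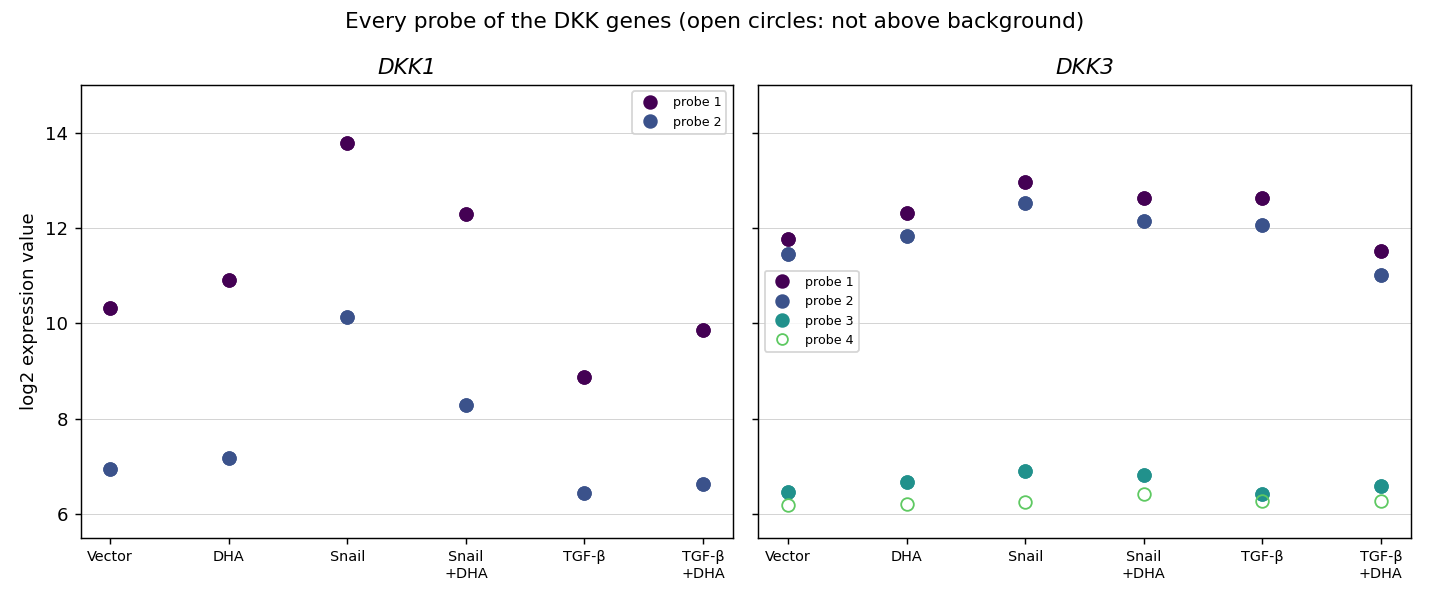
Log2 value (y axis) of every DKK1 and DKK3 probe on the 6 arrays (x axis), with 1 color per probe and open circles where a probe was not above background. Both DKK1 probes were highest with Snail (13.77 and 10.13) and the 2 bright DKK3 probes were lowest with TGF-β+DHA (11.51 and 11.02).

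DKK3, a divergent member of the Dickkopf family that is not known as an LRP blocker like DKK1, had log2 values of 11.77 with Vector, 12.32 with DHA, 12.97 with Snail, 12.63 with Snail+DHA, 12.62 with TGF-β and 11.51 with TGF-β+DHA. It was highest in Snail cells and lowest in TGF-β+DHA cells. The difference from Vector was 1.20 with Snail and 0.85 with TGF-β. A second bright probe gave 1.08 and 0.62. The third DKK3 probe differed by 0.44 and -0.04, and the fourth was above background on no array (6.19 to 6.43).

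In TGF-β cells against Vector cells 1 of the 9 members compared was at least 2-fold higher, FZD2, and 1 was at least 2-fold lower, DKK1. The background was 1.13% higher and 0.844% lower of 12435 genes. WNT5A could not be compared, since neither array was above background. The median difference of the members was 0.42 against 0.03 for all genes.

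Between DHA and Vector cells none of the 9 members compared was past 2-fold, where 0.305% of 12121 genes were higher and 1.33% lower. The differences ranged from -0.33 for FZD6 to 0.58 for DKK1, with 0.54 for both FZD8 and DKK3. When DHA was added to Snail cells 2 of 8 members were at least 2-fold lower, DKK1 (-1.49) and FZD2 (-1.37), and none was higher (2.38% of 11684 genes were lower and 1.28% higher). WNT5A (-0.80), FZD8 (-0.76) and FZD6 (-0.66) were lower by less than that, and the median of the members was -0.71 against -0.02 for all genes. The second DKK1 probe differed by -1.85.

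When it was added to TGF-β cells 2 of 9 members were at least 2-fold lower, FZD2 (-1.26) and DKK3 (-1.11), against 3.59% of 12179 genes lower and 2.03% higher. The second bright DKK3 probe differed by -1.05, and the third, also above background on all 6 arrays, by 0.18 in the other direction. DKK1 was 0.98 higher on the probe that stands for the gene and 0.18 higher on the other. SFRP1 differed by -0.75 and WNT7A by 0.41. The FZD2 difference with DHA in Vector cells was -0.22. The Snail array enters both the Snail and the DHA difference of these cells, and likewise the TGF-β array, and the Snail and TGF-β differences share the Vector array, so these values are not independent of each other.

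**Figure D3:**
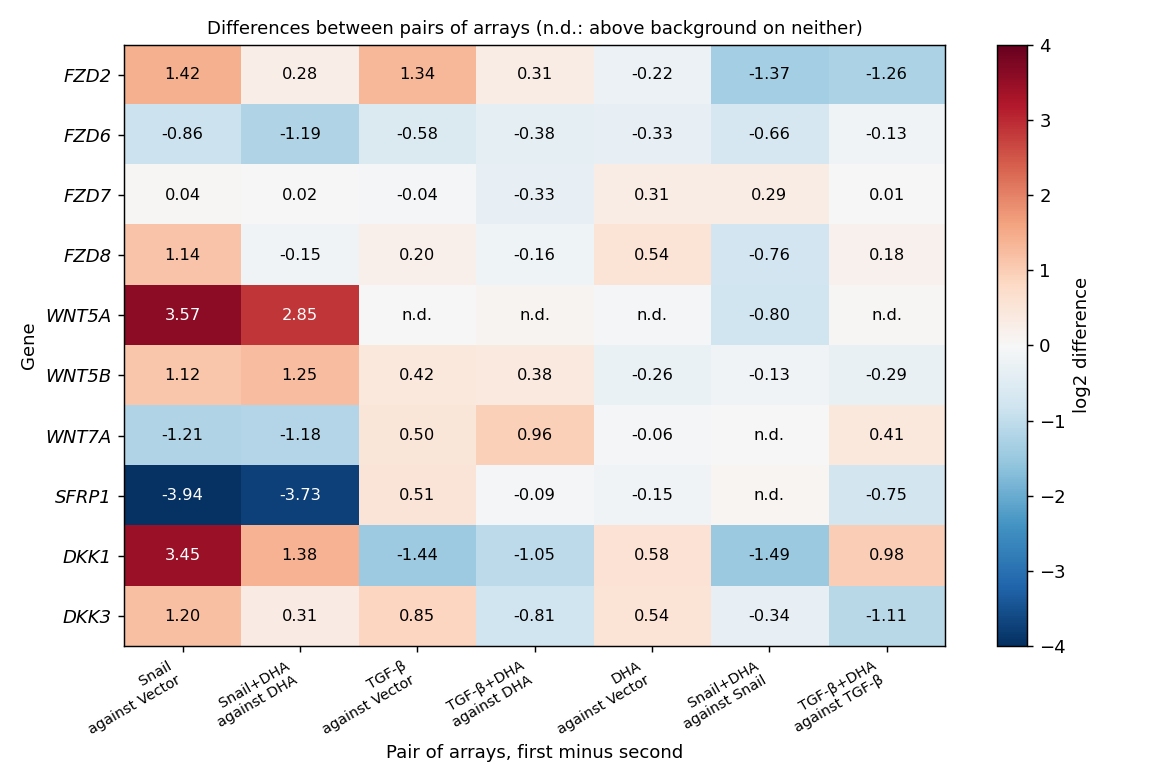
Log2 difference (color and printed value) of the 10 genes (rows) in the array comparisons of the report (columns). Cells marked n.d. had neither array above background, and a value with 1 array not above background (WNT5A, WNT7A and SFRP1 with Snail, WNT5B with the DHA array) is the measured one and not a bound; FZD2 has 1.42 and 1.34 with the inducers and -1.37 and -1.26 when DHA was added to them.

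With DHA on both arrays, 3 members were higher and 3 lower in Snail+DHA than in DHA cells by 2-fold or more in measured values, where 4.49% of 11670 genes were higher and 5.7% lower. DKK1, WNT5A and WNT5B were higher, and FZD6, SFRP1 and WNT7A lower, WNT7A with a bound of at least 1.73-fold. FZD2 (0.28), FZD8 (-0.15) and DKK3 (0.31), which were past 2-fold between Snail and Vector, were not. In TGF-β+DHA against DHA cells DKK1 was the only member past 2-fold (-1.05), where 1.94% of 11726 genes were lower and 1.91% higher. DKK3 differed by -0.81, in the other direction from its 0.85 without DHA.

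**Figure D4:**
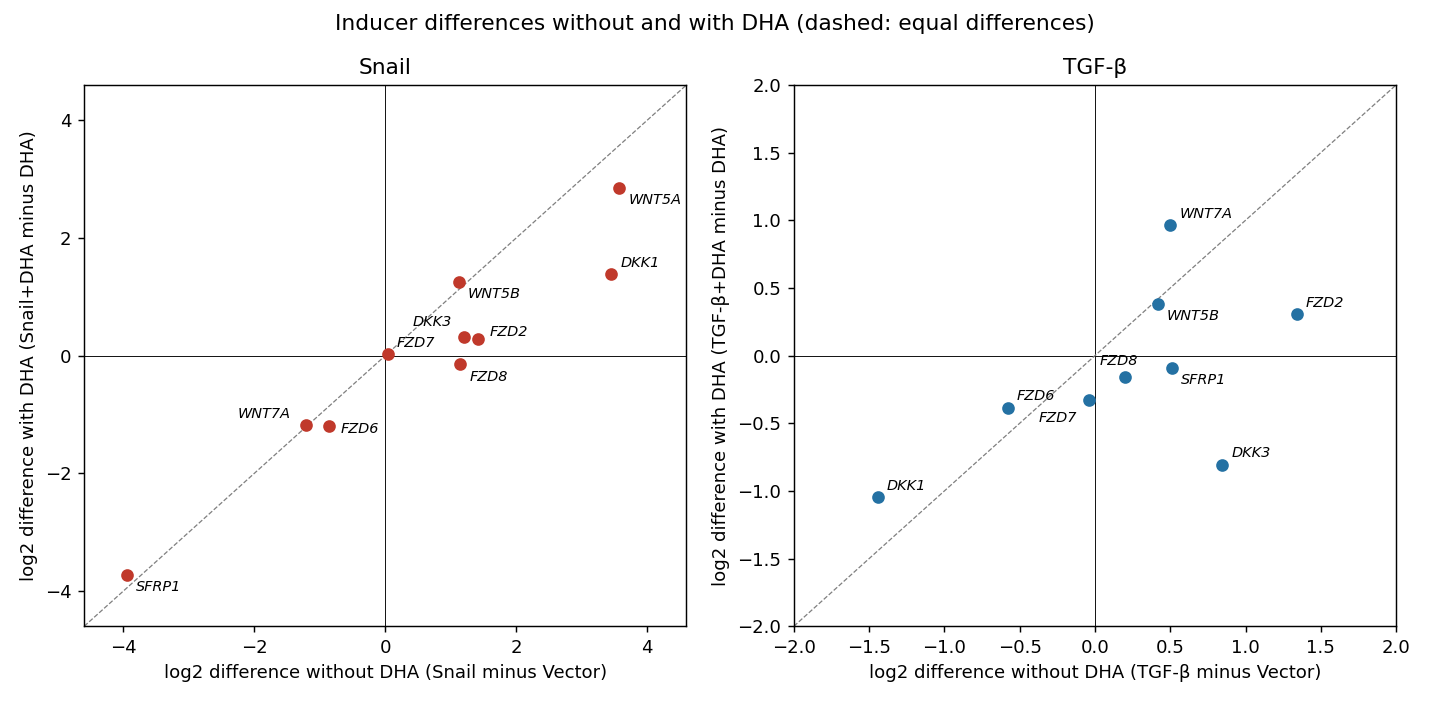
Log2 difference of each gene for the inducer without DHA (x axis, against Vector) and with DHA (y axis, against the DHA array), for Snail and TGF-β in separate panels, with 1 point per gene and a dashed line of equal differences; WNT5A is not in the TGF-β panel because no array there was above background. In the Snail panel FZD2 (1.42 and 0.28), FZD8 (1.14 and -0.15) and DKK1 (3.45 and 1.38) fall furthest below the line. WNT5A, DKK3, FZD6 and FZD7 lie below it too. The 2 axes come from different arrays.

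A fit over all 6 arrays had additive terms for Snail, TGF-β and DHA (limma, 13514 genes, Benjamini-Hochberg adjusted p of 0.05). Its Snail and TGF-β terms are mean differences over both DHA states. A term can pass where the difference is unequal between those states. The fit has 2 residual degrees of freedom, and its error is how the differences vary between conditions, not a spread between replicates. For the Snail term 3 members passed higher and 3 lower, against 3.37% and 4.39% of all genes. WNT5A had an estimate of 3.21 ± 0.231 (SE; limma adjusted p = 0.000323) and WNT5B of 1.18 ± 0.163 (limma adjusted p = 0.00474). DKK1 had 2.42 ± 0.513 (limma adjusted p = 0.0294), with an estimate of 1.28 without the Snail array and of 3.55 without the Snail+DHA array. SFRP1 had -3.84 ± 0.26 (limma adjusted p = 0.000276), WNT7A -1.20 ± 0.189 (limma adjusted p = 0.00896) and FZD6 -1.02 ± 0.235 (limma adjusted p = 0.039). The estimates of WNT5A, SFRP1 and WNT7A rest on values not above background and move with the background correction: with a normexp offset of 16 they were 4.27, -4.75 and -1.86. WNT5A entered the genes tested only through the Snail and Snail+DHA arrays, and SFRP1 and WNT7A only through the arrays without Snail. Their limma p-values thus depend on that filter and on values not above background, and are not independent support for these differences. FZD2 (0.85), DKK3 (0.75), FZD8 (0.50) and FZD7 (0.03) did not pass, with limma adjusted p of 0.154, 0.248, 0.359 and 0.955.

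Leaving out 1 array leaves 1 residual degree of freedom, and where it is a Snail array the Snail cells are 1 array that is assumed to vary like the other conditions. WNT5A, WNT5B and SFRP1 passed in each of these 6 fits. FZD6 did not pass without the DHA array (-0.99, limma adjusted p = 0.0574), the Snail array (-1.24, 0.112) or the Snail+DHA array (-0.81, 0.409). WNT7A did not pass without the Snail+DHA array (-1.09, limma adjusted p = 0.0503), nor DKK1 without the Snail array (limma adjusted p = 0.0925). Without the DHA array FZD2 (1.39, limma adjusted p = 0.00821) and DKK3 (1.39, 0.00845) passed, and without the Snail+DHA array FZD8 did (1.05, 0.0194).

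For the TGF-β term no member and 0.0592% of all genes passed, and the smallest limma adjusted p of a member was 0.645. At an unadjusted p under 0.05 in that term were 4 of 10 members and 796 of 13514 genes. For the DHA term no member and 0% of all genes passed, with 1 member and 1698 genes at an unadjusted p under 0.05. That member was FZD2, at -0.95 ± 0.252 (limma unadjusted p = 0.00577, adjusted p = 0.284), lower with DHA in 3 of 3 pairs of arrays. Without the Vector array it was -1.31 (limma adjusted p = 0.00777, with 819 genes passing), and without the DHA array -1.31 (limma adjusted p = 0.00756, with 827 genes passing). Both of these leave out the pair of arrays without an inducer, so the estimate is that of the Snail and TGF-β pairs. Without any of the other 4 arrays it lay between -0.80 and -0.74 (limma adjusted p of 0.621 to 0.836).

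The study also grouped arrays by the stability of membrane rafts, Snail and TGF-β against the other 4. In that comparison no member and 0% of all genes passed in limma, with 1 member and 1007 genes at an unadjusted p under 0.05. FZD2 was again the member, at 1.40 ± 0.193 (limma unadjusted p = 0.000137, adjusted p = 0.618).

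Of 85 other Wnt pathway genes on a fixed list, 83 had a probe and 58 were above background on at least 1 array. Between Snail and Vector 1 of 52 was past 2-fold higher, CELSR3 at 1.24, and 6 were lower by measured values (5 as bounds), with a median of -0.08, against 4.21% higher and 4.44% lower of all genes. The lower genes were CELSR2 (-1.81) and VANGL2 (-1.59), both cell surface proteins of planar cell polarity, KREMEN2 (-2.03), a receptor for DKK proteins, MYC (-1.16), a known β-catenin target, and the ligands WNT10A and WNT4. Neither ligand was above background on the Snail array, so WNT10A was at least 2.87-fold lower and WNT4 at least 1.85-fold lower. In limma's Snail term 1 of the 58 passed higher and 6 lower, against 3.37% and 4.39% of all genes. The higher gene was CELSR3 at 0.98, which lay at the limit (limma adjusted p = 0.05 as rounded). Among the lower genes were KREMEN2 at -2.03 (limma adjusted p = 0.00196), MYC at -1.66 (0.0102) and CELSR2 at -2.19 (0.0104). ROR2, the WNT5A co-receptor, was above background on the Snail array with a value of 6.80 and had an estimate of 0.51 (limma adjusted p = 0.144).

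In TGF-β cells none of 53 other pathway genes was past 2-fold against Vector, where 1.13% of all genes were higher and 0.844% lower. With DHA alone none of 49 was, where 0.305% of all genes were higher and 1.33% lower. When DHA was added to TGF-β cells 6 of 51 were past 2-fold lower by measured values (5 as bounds) and none higher, against 3.59% and 2.03% of all genes. These were CELSR2 (-1.95), VANGL2 (-1.72), KREMEN2 (-1.34), CELSR3, which lay at the 2-fold limit, WNT10A and AXIN2, a feedback inhibitor and known target of the pathway. WNT10A and AXIN2 were not above background with TGF-β+DHA and were at least 2.26-fold and at least 1.94-fold lower. When DHA was added to Snail cells 3 of 43 were lower by measured values (2.38% of all genes) and none higher (1.28%). CELSR2 (-1.06) and PRICKLE1 (-1.36) were above background on both arrays, and APCDD1 was at least 1.97-fold lower, below 2-fold as a bound. With DHA on both arrays 9 of 43 were lower in Snail+DHA cells by measured values (8 as bounds) and none higher, against 5.7% and 4.49% of all genes. In TGF-β+DHA cells 3 of 49 were lower (2 as bounds) and none higher, against 1.94% and 1.91%, and the gene under 2-fold as a bound was WNT10A in both. CTNNBIP1, which binds β-catenin and keeps it from TCF factors, was among the genes lower in Snail+DHA cells (-2.09). CTNNB1, which encodes β-catenin, spanned 7.54 to 8.38 and was past 2-fold in no comparison.

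**Figure D5:**
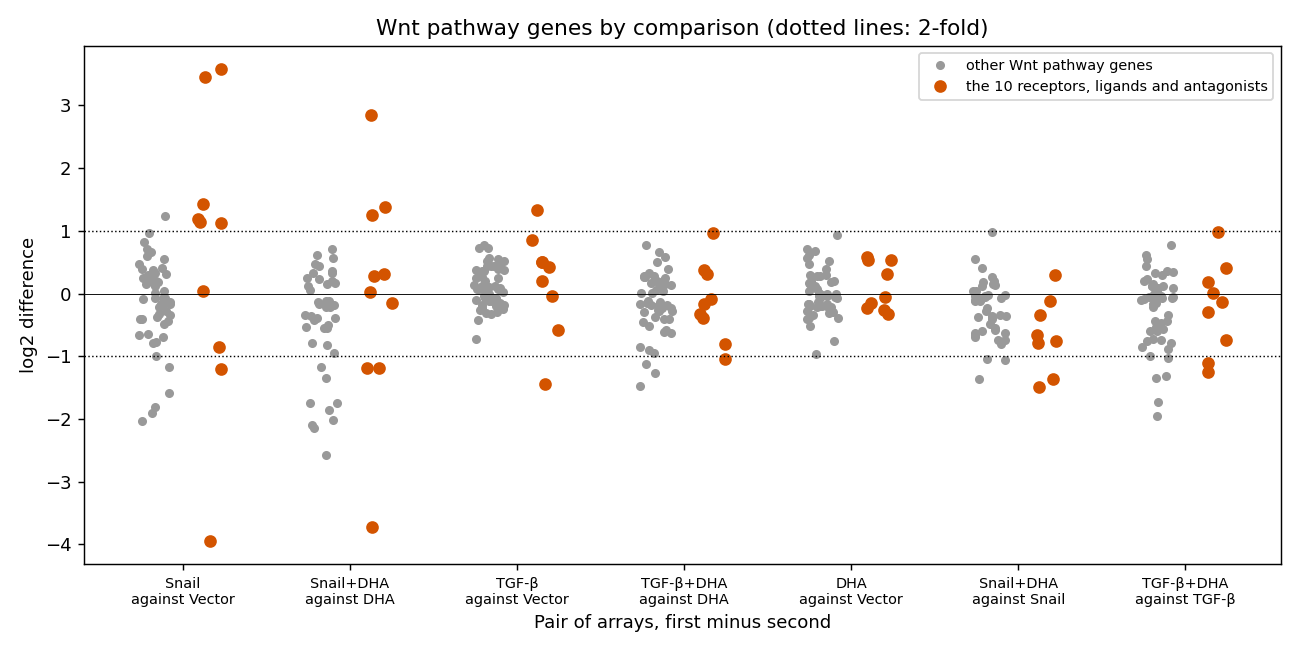
Log2 difference (y axis) of the 10 genes (orange) and of the other Wnt pathway genes (grey) above background on either array, for each pair of arrays (x axis), with 1 point per gene. Dotted lines mark 2-fold; points are measured values, also where 1 array was not above background, as for the lowest member (SFRP1) and the highest (WNT5A) between Snail and Vector, and 6 other genes lie below the lower line there.

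By the shape of the values over the 6 arrays, the genes most like DKK1 among 3168 genes with a range of at least 2-fold were ARMCX6, TMEM123 and ABHD14A (Pearson r of 0.998, 0.988 and 0.985). Those most like SFRP1 were PLS3, ARTN and AIF1L (0.998, 0.997 and 0.997). For DKK1 145 genes and for SFRP1 384 genes exceeded an r of 0.9. These correlations describe 6 arrays that share controls and scaling.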

How the data were processed

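Total RNA of HMLE cells was hybridised to 6 Illumina HumanHT-12 v4 arrays. The authors made intensity values with the IlluminaExpressionFileCreator module of GenePattern and deposited them without normalization; their natural log was taken as a log2 signal, since the largest deposited value is 3123899. The authors deposited quantile normalized log2 values too, whose base of log was inferred from their range; these are the values reported. Probe symbols are those of the platform annotation, in which 30113 probes have 1 symbol, 8 several and 17202 none.

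A probe was above background at a detection p under 0.05, estimated from the peak of low signals and the spread below it. A gene is its probe of highest mean among those above background on at least 1 array (13514 genes). Log2 differences of at least 1 were counted among genes above background on either array, without a test. Fits used lmFit and eBayes with a trend in limma 3.58.1 under R 4.3.3 (data.table, version 1.17.8). They were also run on simulated data with independent noise per array and additive changes. That run says nothing of differences that are unequal between conditions. All 10 members are named, with the 6 other pathway genes of widest range (CELSR2, VANGL2, KREMEN2, MYC, CTNNBIP1 and WNT10A); further genes were named after their values were seen. The members and lists were chosen with earlier results of these data known. The number of arrays limits the precision. Other processing tried was normexp with offsets of 50 and 16, scaling to a common median, a detection p of 0.01, no filter, the probe of highest variance, eBayes without a trend and each array left out.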

Additional observations from a re-analysis of the deposited data

Results flagged for a closer look

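DKK1 differed in direction with DHA between the EMT inducers, by -1.49 in Snail cells and by 0.98 in TGF-β cells (log2, 1 array per condition). Its second probe gave -1.85 and 0.18. The difference between these differences was not tested.

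DKK3 differed in direction with TGF-β between the DHA states, by 0.85 against Vector and by -0.81 with DHA on both arrays. Its second bright probe gave 0.62 and -0.81. The third probe, also above background on all 6 arrays, gave -0.04 and -0.08 and did not change direction. This difference was not tested either.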

How the results depend on the processing

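No paired analysis was possible because each condition has 1 array and the labels carry no replicate numbers; the DHA term of the fit compares arrays with and without DHA within each inducer. Of the counts of members under the alternatives, 91 lay within 1.5 times the reported count and 3 did not. TGF-β+DHA against DHA had 2 members past 2-fold with a normexp offset of 16 (WNT7A joined at 1.14) against 1, and with common-median scaling that 1 was WNT7A at 1.06 and not DKK1, which was -0.92. Leaving out each array in turn, the Snail term called 4 to 7 members, the TGF-β term 0 to 0, the DHA term 0 to 1 and the raft comparison 0 to 0. The offset of 16 put WNT5A at 4.61 and SFRP1 at -4.90 in Snail against Vector, where 1 of each pair of values was not above background. It also put DKK1 at 1.04 in TGF-β+DHA against TGF-β, and common-median scaling put FZD6 at -1.05 in Snail against Vector and WNT5A at -1.06 in Snail+DHA against Snail. The other single differences kept their side of 2-fold, and no difference past 2-fold turned its direction. Without a trend in eBayes DKK1 was lost from the Snail term (limma adjusted p = 0.0603) and the TGF-β term called 0 genes. The FZD2 gap between the Snail and TGF-β arrays and the other 4 was 1.26 to 1.35, shared with LAPTM5 and, with the offset of 16, with GDPD5. Its limma adjusted p in the raft comparison ranged from 0.334 to 0.942. The causes were not tested.

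Over all genes, the offset of 16 gave 418 against 246 calls for TGF-β against Vector, 341 against 198 for DHA against Vector, 720 against 428 for Snail+DHA against Snail, 1059 against 684 for TGF-β+DHA against TGF-β, and 678 against 451 for TGF-β+DHA against DHA. Common-median scaling gave 332 for DHA against Vector. It lowered the share of calls that were higher from 48.7% to 36.3% for Snail against Vector, from 18.7% to 4.52% for DHA against Vector, from 35.0% to 12.1% for Snail+DHA against Snail and from 36.1% to 13.5% for TGF-β+DHA against TGF-β, and raised it from 49.7% to 64.2% for TGF-β+DHA against DHA, with the median of all genes at -0.08, -0.21, -0.18, -0.17 and 0.10. Single-gene values given for that scaling are not corrected for these medians. It called 2 genes for the TGF-β term against 8. Without an array the Snail term called 649 to 1423 genes against 1049, the TGF-β term 0 to 249 against 8 and the DHA term 0 to 827 against 0.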
